A study of Rattus norvegicus with 3 samples.

Results

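The core circadian clock genes were read in primary rat granulosa cells, the somatic cells that line the ovarian follicle. The 10 genes were Per1, Per2, Per3, Cry1, Cry2, Nr1d1, Nr1d2, Bmal1 (also known as Arntl), Clock and Bhlhe40, and each probe set that the platform annotation gives to a single one of these symbols was taken. All 10 of them were on the array, among 14218 named genes, and they held 18 of its 31099 probe sets. Single probe sets stood for 5 of the genes, 3 genes had 2, Nr1d2 had 3 and Clock had 4.

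The cells came from immature Sprague-Dawley females aged 24 to 25 days, 48 h after a dose of pregnant mare's serum gonadotropin, which drives follicles to the preovulatory stage. Every culture received an adenovirus at 50 pfu per cell for 2 h, carrying either green fluorescent protein (Ad-GFP) or the transcription factor NFIL3 (Ad-NFIL3). The control group had Ad-GFP and no stimulus. The stimulated group had Ad-GFP, and from 24 h after the virus 10 uM forskolin, an activator of adenylyl cyclase, with 20 nM phorbol 12-myristate 13-acetate, an activator of protein kinase C (together FSK/PMA), for 6 h. The NFIL3 group had Ad-NFIL3 and the same stimulus. FSK/PMA was added in place of the ovulatory gonadotropin signal. No culture without virus, and none with Ad-NFIL3 but no stimulus, was analysed here. Each group was 1 Affymetrix rat genome array of RNA pooled from 3 experiments, so no difference has a replicate check and no p-value is given. Neither the clock time at which cells were collected nor the promoter in the viruses is stated in what was used here.

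The mammalian clock is a feedback loop of transcription. BMAL1 and CLOCK bind together to E-box sequences and turn on the Per and Cry genes, whose proteins enter the nucleus and repress that pair. In a further loop the same pair turns on Nr1d1 and Nr1d2, which encode the nuclear receptors REV-ERB alpha and beta, and these repress Bmal1 at elements that they share with the ROR receptors. NFIL3 acts in another arm as a repressor at D-box sequences, where DBP, TEF and HLF activate. Clock genes are known to cycle in the rat ovary, and gonadotropins are known to set their timing there.

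The values are linear MAS5 signals, in which each probe set has its own brightness, so that signals of different genes cannot be set against each other. Signals under 126, the median of the whole table, were held at this floor and then put on the log2 scale. The brightest probe set stood for its gene. A comparison measured a gene if either of its arrays was above the floor. A fold is written "at least" where the other array was below it. Of the 18 clock probe sets, 15 were above the floor on at least 1 array and 11 on all 3. The disagreement between probe sets of a gene gave a robust SD of 0.36 per log2 difference for FSK/PMA against control (1895 genes with 2 measured probe sets) and of 0.24 for Ad-NFIL3 against Ad-GFP (1846 genes). This spread is that between probe sets read on the same arrays. It leaves out errors shared by a whole array and differences between cultures.

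The medians of the 3 arrays lay between 115 and 136, and 48.1% to 51.8% of probe sets were above the floor. The signal of Nfil3 was 564 in the control, 1321 after FSK/PMA and 5882 in the array labelled Ad-NFIL3, where it was highest. Whether its probe set reads the transcript of the virus is not known, so the last value may or may not include it. Of the granulosa cell markers, 11 of the 12 listed were on the array and all 11 were above the floor, and their summed signal was 95424 in the control, 80928 after FSK/PMA and 52079 for Ad-NFIL3. This sum is led by the bright Inha and Inhba and holds members that went opposite ways. With FSK/PMA, 3 of the 11 were higher (Cyp19a1, from 120 to 2490, Cyp11a1, from 5524 to 17020, and Inha) and 8 were lower, among them Inhbb, from 4272 to 422. Theca and stroma markers (6 of 10 on the array above the floor) summed to between 1075 and 1535, and leukocyte markers (4 of 7) to 2055, 2743 and 3128 in the same order of arrays. Of 5 oocyte markers only Zp2 was above the floor, with Gdf9 and Bmp15 below it, and endothelial markers (2 of 5) summed to between 418 and 529. Red cell markers (2 of 3), led by Hbb, summed to between 15760 and 20012. The part of these shifts in the clock gene differences was not tested, and in pooled cells fewer cells of a type and less RNA per cell cannot be told apart.

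FSK/PMA was first set against the control, both with Ad-GFP, which asks how the clock genes of granulosa cells stand after 6 h of the ovulatory-type stimulus. The genes did not shift as a block. Per1, Bmal1, Cry2 and Bhlhe40 were at least 2-fold higher, and the REV-ERB genes Nr1d1 and Nr1d2 were at least 2-fold lower. Per2, Cry1 and Clock lay within 2-fold. Per3 was at least 1.39-fold lower, a bound, so whether it passed 2-fold is not known. The 4 higher genes of 10 measured stand beside 7.43% of 9395 measured genes that were as much higher, and the 2 lower genes beside 11.4%. The median log2 difference of the 10 was 0.56, and that of all measured genes was -0.10.

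**Figure D1:**
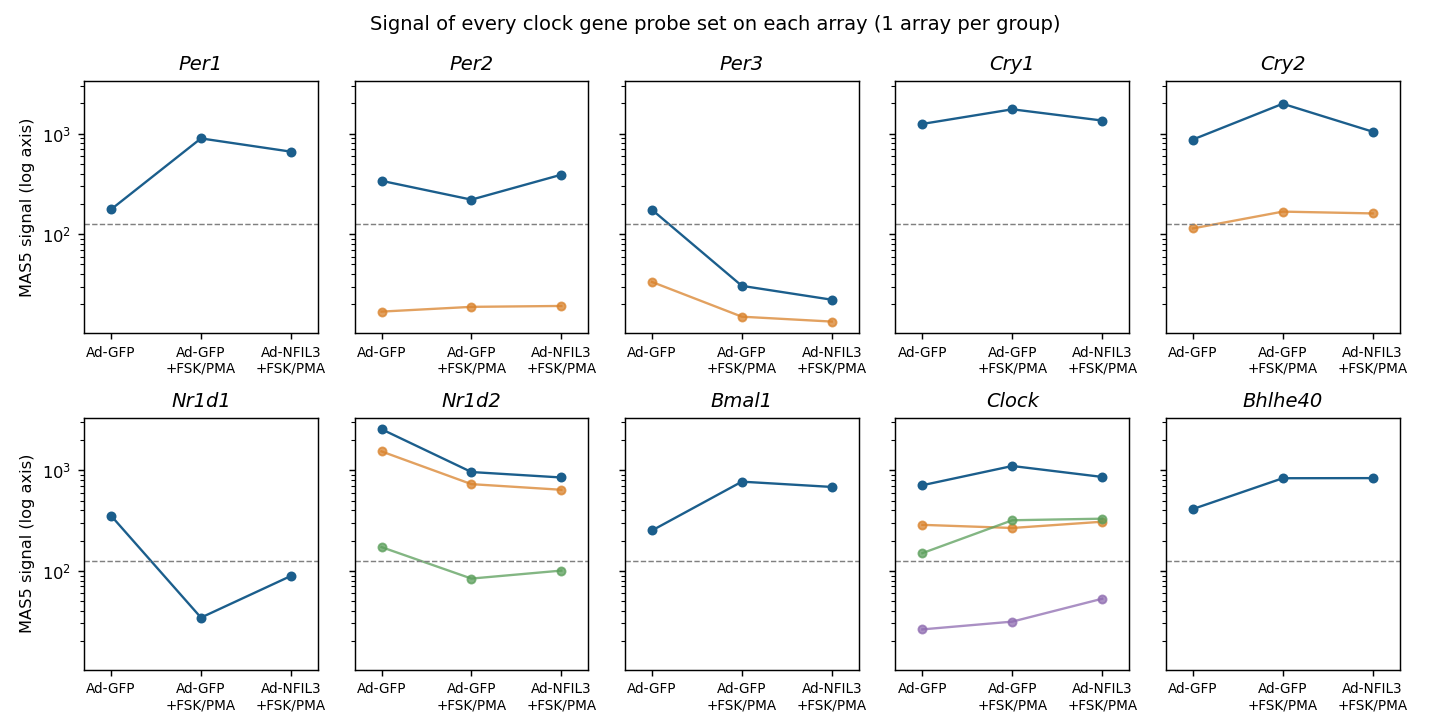
MAS5 signal (log axis) of all 18 clock gene probe sets on each of the 3 arrays, 1 panel per gene and 1 line per probe set, with blue for the brightest and a dashed line at the floor of 126. Per1, Bmal1, Cry2 and Bhlhe40 stand higher with FSK/PMA, and the Nr1d1 and Nr1d2 lines drop; signals cannot be compared between genes.

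The Period genes, which encode the repressors whose build-up times the loop, went different ways. Per1 had a signal of 177 in the control, 898 in the stimulated Ad-GFP cells and 663 in the stimulated Ad-NFIL3 cells, the order kept in all that follows. Both stimulated arrays were thus far above the control, and Per1 was 5.09-fold higher with FSK/PMA, a log2 difference of 2.35. It stood in place 102 from the top among the 9395 genes. Per1 is a classic gene of acute induction, by light in the brain's clock and by cAMP in many cells. With a floor of 547, the 75th percentile of all signals, its difference was 0.71, since the control signal was then held at the floor.

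Per2 had signals of 340, 221 and 391, so the stimulated Ad-GFP array was the lowest. It was 1.54-fold lower with FSK/PMA. Its other probe set stayed between 17.0 and 19.3 on all arrays, under the floor. Per3, the Period gene that mice can lose with the least effect on rhythm, had signals of 175, 30.6 and 22.3, and only the control array was above the floor. It was at least 1.39-fold lower with FSK/PMA. With the floor lowered to 62.9 this bound moved to a log2 difference of -1.48, past 2-fold. A dimmer Per3 probe set was below the floor throughout, with signals of 33.5, 15.1 and 13.5.

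The Cryptochrome genes encode the stronger repressors of the BMAL1 and CLOCK pair. Cry2 had signals of 875, 1986 and 1047, highest on the FSK/PMA array and close together on the others. It was 2.27-fold higher with FSK/PMA, in place 521 from the top. Its dimmer probe set (114, 168 and 161) was at least 1.33-fold higher, the same direction. Averaging both probe sets gave a log2 difference of 0.80 for Cry2, under 2-fold. Cry1 had signals of 1251, 1749 and 1352, again highest with FSK/PMA, and was 1.40-fold higher, within 2-fold. The log2 difference of Cry1, 0.48, was larger than the probe set SD of 0.36, and 18.3% of all measured genes were as high or higher.

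Of the activating pair, Bmal1 differed more than its partner. Bmal1 had signals of 252, 773 and 685, so both stimulated arrays were above the control. It was 3.06-fold higher with FSK/PMA, in place 275 from the top, from its single probe set. With the floor at 547 its log2 difference was 0.50. Clock had signals of 712, 1106 and 861 in its brightest probe set and was 1.55-fold higher. The other probe sets of Clock disagreed with each other. The log2 difference was -0.10 in a probe set with signals of 287, 267 and 309, and 1.09 in another with signals of 150, 319 and 331. The dimmest (26.2, 31.3 and 52.9) was below the floor. No single direction can thus be given for Clock across its probe sets.

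Bmal1 and the REV-ERB genes lay on opposite sides of the control, and a link between them was not tested. The promoter of Bmal1 is printed because it holds the core letters of a ROR element, the kind at which the REV-ERB receptors act. RefSeq's table (build GRCr8) gives the 250 bases before its start site at chr1:176766078-176766327 on the plus strand, 106 bases inside the outermost annotated start of the gene. Capitals mark TAGGTCA, the core of a ROR element, whose first base lies 16 bases before the start site.
Bmal1 promoter: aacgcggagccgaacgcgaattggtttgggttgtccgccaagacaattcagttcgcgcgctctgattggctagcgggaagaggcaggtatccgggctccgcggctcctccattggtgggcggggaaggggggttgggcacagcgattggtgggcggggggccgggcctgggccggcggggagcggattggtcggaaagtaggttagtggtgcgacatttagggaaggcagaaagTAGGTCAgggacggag
These letters, on either strand, were in 2.63% of all 33469 promoter windows of the table. Their presence does not show that a receptor was bound there.

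The REV-ERB genes were both lower. Nr1d2 had signals of 2571, 963 and 850 in its brightest probe set, and 1545, 730 and 642 in the next. The control array was highest in both, and the stimulated arrays were close together. Nr1d2 was 2.67-fold lower with FSK/PMA by the first and 2.12-fold lower by the next. The dimmest probe set (173, 83.9 and 101) was at least 1.37-fold lower. All 3 agreed in direction, although the mean over them was -0.98 on the log2 scale, just under 2-fold. Nr1d1 had signals of 354, 34.3 and 89.1, and only the control array was above the floor. It was at least 2.81-fold lower with FSK/PMA, and the lower floor of 62.9 moved this bound to a log2 difference of -2.49. Nr1d1 stood in place 420 and Nr1d2 in place 472 from the bottom.

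Bhlhe40 encodes DEC1, a repressor that competes for E-boxes. Its signals were 412, 836 and 838, with both stimulated arrays above the control and level with each other. It was 2.03-fold higher with FSK/PMA, at the edge of the 2-fold limit, and the floor of 547 brought the log2 difference to 0.61. Nr1d1 and Bhlhe40 are textbook targets of BMAL1 and CLOCK, and were on opposite sides here. Their windows are printed because both hold the E-box CACGTG, set in capitals. That of Nr1d1 belongs to an annotated start site 2358 bases inside the gene, at chr10:84229455-84229704 on the minus strand, and its E-box begins 191 bases before that site. That of Bhlhe40 is chr4:143174200-143174449 on the plus strand, with the E-box 220 bases before the start site.
Nr1d1 inner promoter: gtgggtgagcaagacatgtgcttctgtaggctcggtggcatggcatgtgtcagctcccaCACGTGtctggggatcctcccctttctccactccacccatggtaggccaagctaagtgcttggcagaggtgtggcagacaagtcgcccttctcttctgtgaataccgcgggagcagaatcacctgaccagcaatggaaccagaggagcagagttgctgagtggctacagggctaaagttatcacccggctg
Bhlhe40 promoter: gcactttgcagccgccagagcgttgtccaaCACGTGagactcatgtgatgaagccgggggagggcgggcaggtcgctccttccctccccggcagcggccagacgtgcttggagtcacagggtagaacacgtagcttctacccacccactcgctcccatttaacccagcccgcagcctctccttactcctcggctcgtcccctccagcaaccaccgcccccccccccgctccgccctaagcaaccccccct
The E-box letters were in 6.42% of all windows.

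**Figure D2:**
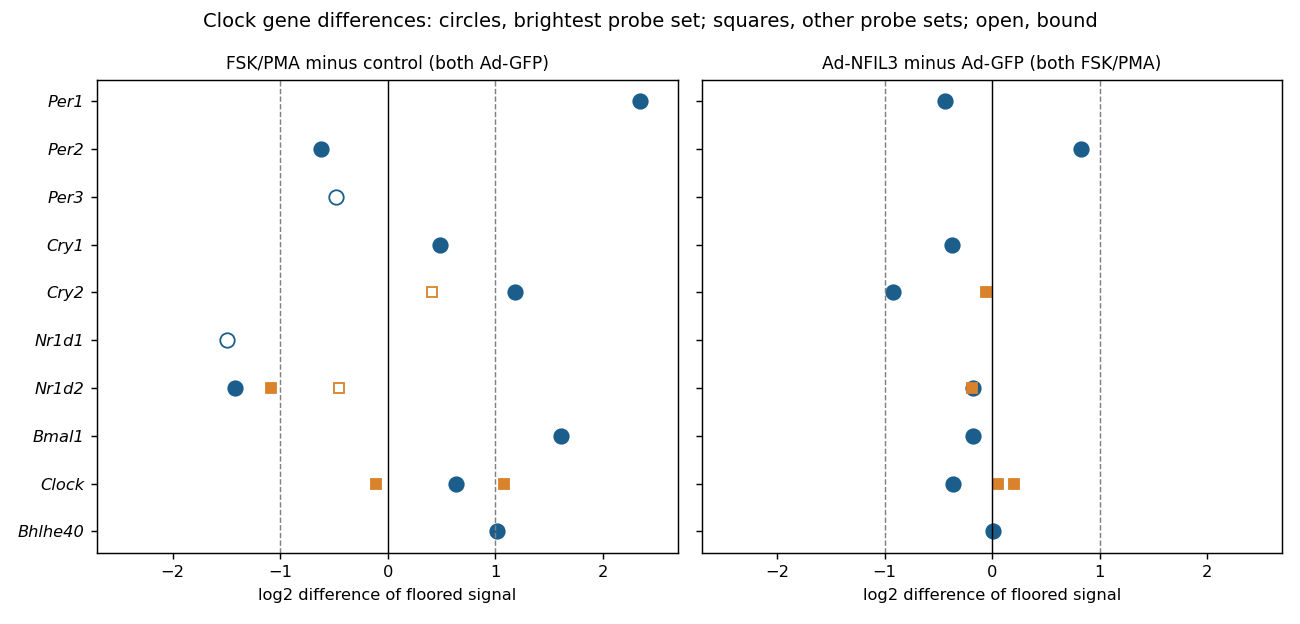
Log2 difference of floored signal for each clock gene, FSK/PMA minus control on the left and Ad-NFIL3 minus Ad-GFP under FSK/PMA on the right, with circles for the brightest probe set, squares for others, open symbols for bounds and dashed lines at 2-fold. The left panel spreads from -1.49 (Nr1d1, a bound) to 2.35 (Per1), while every point on the right lies within 2-fold, the outermost being Cry2 at -0.92 and Per2 at 0.82.

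Of the 10 clock genes, 3 had 2 or more measured probe sets in this comparison, and in 2 of them (Cry2 and Nr1d2) all agreed in direction. When arrays were scaled to a common median instead, the median of all genes moved by 0.13, and the counts over all genes went from 698 higher and 1072 lower to 856 and 852. The clock genes' median lay 0.66 above that of all genes in the main scaling and 0.67 above it with the median scaling. Such scaling multiplies all signals of an array by a single factor. The gap is thus nearly kept by construction and is no check of the result.

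Ad-NFIL3 was then set against Ad-GFP, both with FSK/PMA, which asks whether the clock genes of stimulated cells differ when NFIL3 is overexpressed. None of the 8 measured genes passed 2-fold, in a comparison where 1.34% of the 9397 genes measured passed it upward and 0.958% downward. Of the 8, 6 were lower and 2 were higher. The largest differences were those of Cry2, which was 1.90-fold lower, and Per2, which was 1.77-fold higher. At a limit of 1.5-fold these were the only clock genes counted, where 6.81% of all genes were higher and 4.25% lower. Per3 and Nr1d1 were below the floor on both arrays and were not measured. This comparison uses the same FSK/PMA array as the one above, so their differences are not independent.

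Per2, at 221 with Ad-GFP and 391 with Ad-NFIL3, stood in place 232 from the top of 9397 genes. It was on the side opposite to most of the clock genes, and its log2 difference of 0.82 was larger than the probe set SD of 0.24. Median scaling gave 0.59 and cyclic loess 0.67. The mean with its other probe set, which was held at the floor on all arrays, was 0.41. The promoter of Per2 is printed because it is the only clock gene window that held a D-box, the kind of sequence that NFIL3 binds. The window is chr9:99496994-99497243 on the minus strand, 76 bases inside the outermost annotated start, and capitals mark TTATGTAA, which begins 192 bases before the start site.
Per2 promoter: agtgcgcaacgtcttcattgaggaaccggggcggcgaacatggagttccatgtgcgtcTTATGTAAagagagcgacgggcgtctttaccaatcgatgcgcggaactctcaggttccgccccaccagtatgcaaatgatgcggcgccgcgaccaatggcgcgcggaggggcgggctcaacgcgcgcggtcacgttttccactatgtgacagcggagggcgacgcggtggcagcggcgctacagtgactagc
The D-box forms searched were TTATGTAA, its close relative TTACGTAA and a further form, TTATGCAA, and any of them was in 1.85% of all windows. A match of letters does not show that NFIL3 was bound there.

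Cry2 stood in place 121 from the bottom, at 1986 with Ad-GFP and 1047 with Ad-NFIL3. Its dimmer probe set did not share this and differed by -0.06 on the log2 scale. The mean of both was -0.49, and scaling to a common median gave -1.16, past 2-fold. Per1 and Cry1 were 1.35-fold and 1.29-fold lower with Ad-NFIL3, log2 differences of -0.44 and -0.37, both larger than the probe set SD. Of all measured genes, 7.64% were as low as Per1 or lower, and 10.1% as low as Cry1 or lower. Per1, Cry1 and Cry2, all repressor genes of the main loop, thus had lower signals on the Ad-NFIL3 array than on the FSK/PMA array, and Per2 had a higher one.

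Bmal1 and Nr1d2 were 1.13-fold lower each, and their log2 differences of -0.17 and -0.18 were within the probe set SD. The next Nr1d2 probe set gave the same size, -0.19. Clock was 1.29-fold lower in its brightest probe set, while the others differed by 0.21 and 0.05. Bhlhe40 differed by 0.00 on the log2 scale in the main setting, and by -0.23 with the median scaling. Nr1d1, although not measured by the floor, had a signal of 34.3 with Ad-GFP and 89.1 with Ad-NFIL3.

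**Figure D3:**
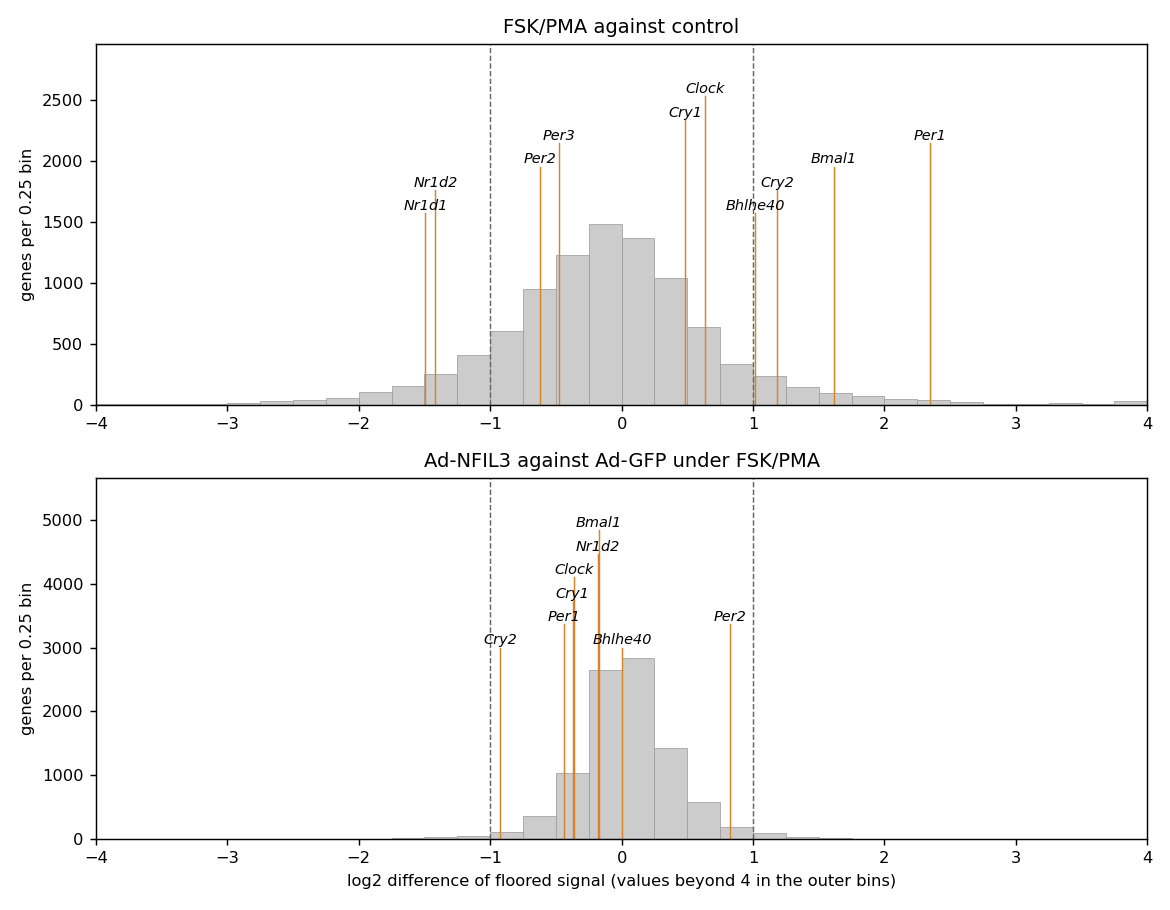
Histograms of the log2 difference of all measured genes (bins of 0.25; dashed lines at 2-fold), with each measured clock gene marked by an orange line. Per1 and Bmal1 lie in the upper tail with FSK/PMA and Nr1d1 and Nr1d2 in the lower, whereas with Ad-NFIL3 all but Cry2 and Per2 lie between -0.44 and 0.00.

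The median difference of the 8 clock genes was -0.27, and that of all measured genes was 0.03. With median scaling the median of all genes moved by -0.23, and the counts over all genes went from 126 higher and 90 lower to 48 and 190. Quantile normalisation gave 93 and 111 and cyclic loess 89 and 111. The clock genes' median lay 0.30 below that of all genes in the main scaling and 0.31 below it with median scaling. This gap too is nearly kept by construction. In both, 7 of 8 clock genes (all but Per2) were below the all-gene median. Among these, Bhlhe40 was close to it in the main scaling (0.00 against 0.03). Bmal1 and Nr1d2 differed by less than the probe set SD, and Clock was lower only in its brightest probe set. On the Ad-NFIL3 array 8 of 11 granulosa markers were lower than on the Ad-GFP array, led by Inha (29911 to 18604) and Inhba (21913 to 8520), and 3 (Inhbb, Amh and Nr5a2) were higher. All 6 theca and stroma markers and all 4 leukocyte markers that were above the floor on some array had higher signals. Of the 6, Col1a1 (101 to 121) and Acta2 (106 to 121) were below the floor on both arrays compared here. Col3a1 differed little (331 to 341), while Dcn went from 196 to 481 and Pdgfra from 67.1 to 149. The part of these marker differences was not tested.

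Set against the unstimulated control, the array with Ad-NFIL3 and FSK/PMA had the same clock genes past 2-fold as FSK/PMA alone, but for Cry2. Each of its arrays is used in a comparison above, so these are given only as values. Per1 was 3.75-fold, Bmal1 2.71-fold and Bhlhe40 2.03-fold higher, where 6.52% of the 9647 genes measured passed 2-fold upward. Nr1d2 was 3.02-fold and Nr1d1 at least 2.81-fold lower, where 9.05% passed it downward. Cry2, past 2-fold with the stimulus alone, was 1.20-fold higher here. Per2 and Cry1 were 1.15-fold and 1.08-fold higher, Clock was 1.21-fold higher, and Per3 was at least 1.39-fold lower. Bmal1, Bhlhe40 and Nr1d2 thus had close signals on both stimulated arrays. Per1, Cry1 and Cry2 lay between the control and the FSK/PMA array, and Per2 lay above both.

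**Figure D4:**
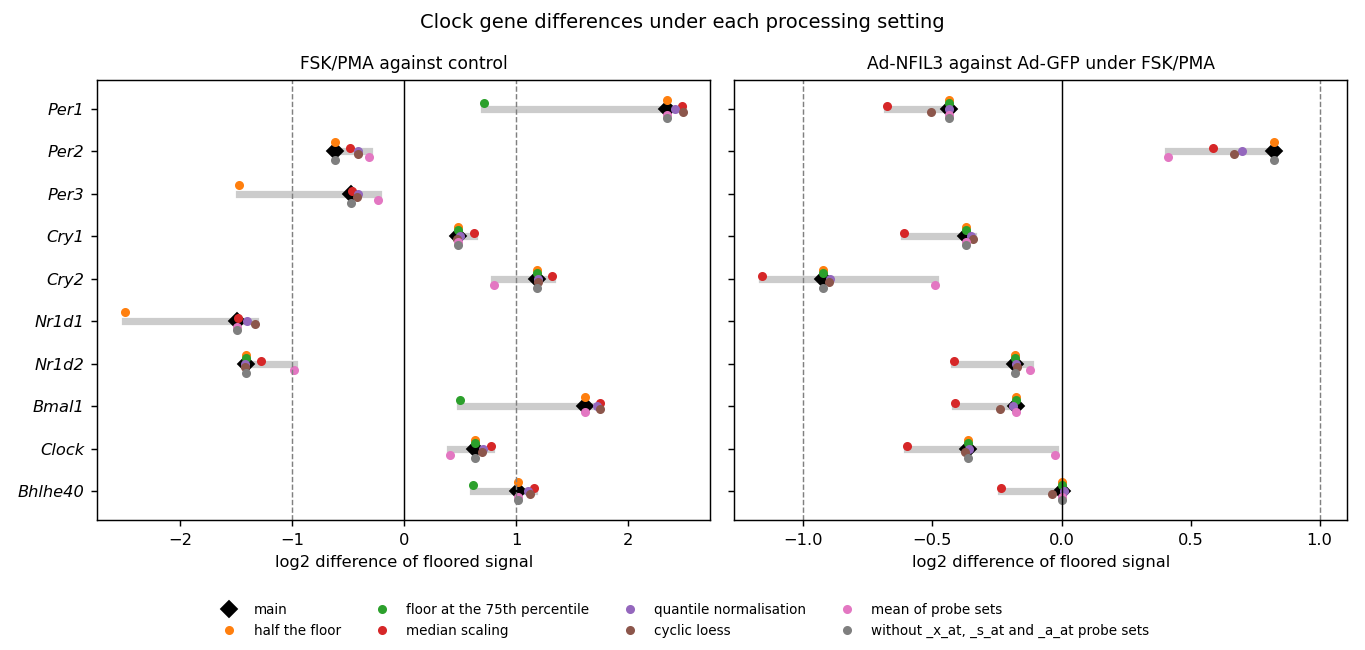
Log2 difference of each clock gene under the main processing (black diamond) and 7 alternatives (coloured dots), with a grey bar from the lowest to the highest. With FSK/PMA no gene crosses 0, and the long bars of Per1, Per3, Nr1d1 and Bmal1 end at other floors; with Ad-NFIL3 only Bhlhe40, near 0, lies on both sides.

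Other genes of the clock network were read from a list of 60, of which 55 were on the array. With FSK/PMA, 8 of the 48 measured passed 2-fold upward and 3 downward (all genes, 7.43% and 11.4%), and their median of 0.09 was close to the all-gene median of -0.10. With Ad-NFIL3 only Nfil3, the gene the virus carries, passed 2-fold of the 48 measured (all genes, 1.34% higher and 0.958% lower). Among 22 network genes with several measured probe sets, these differed in direction for 8 with FSK/PMA and for 12 with Ad-NFIL3, so a direction given for a small difference is that of the brightest probe set. Most of the network thus lay within 2-fold, and the genes past it are described by role.

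Among paralogs and second-loop genes, Npas2, which can stand in for Clock, had signals of 109, 365 and 376 and was at least 2.90-fold higher with FSK/PMA. Its control array was below the floor and the stimulated arrays were level, close to the pattern of Bmal1. Rora, an activator of Bmal1 at the elements that the REV-ERBs use, had signals of 518, 424 and 352 and was 1.22-fold lower, while its dimmer probe set (47.9, 185 and 133) was at least 1.47-fold higher, so no single direction can be given. Bhlhe41, which encodes DEC2, was at least 1.12-fold lower, and Bmal2 and Rorb were below the floor on all arrays.

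With FSK/PMA the D-box activators Dbp and Tef went the other way from Nfil3. Dbp had signals of 614, 79.0 and 159 and was at least 4.88-fold lower with FSK/PMA. Tef had signals of 791, 262 and 442 and was 3.02-fold lower, with a dimmer probe set (246, 87.1 and 114) lower in the same direction. Nfil3 was 2.34-fold higher. On the Ad-NFIL3 array Tef and Dbp stood above the stimulated Ad-GFP array, by log2 differences of 0.76 and at least 0.33, and Hlf was below the floor on all arrays.

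Of 16 measured kinases, phosphatases and ubiquitin ligases that set the life of clock proteins, only Prkaa2 passed 2-fold by the brightest probe set. Prkaa2, a catalytic subunit of AMP-activated kinase, which marks CRY1 for breakdown, had signals of 1410, 171 and 49.0 and was 8.23-fold lower with FSK/PMA. Its paralog Prkaa1 was 1.24-fold higher by the brightest probe set. A dimmer Prkaa1 probe set (145, 334 and 243) was more than 2-fold higher, and the dimmest was below the floor on all arrays. Btrc, the ligase subunit that takes PER proteins to breakdown, had signals of 847, 1659 and 1211 and was 1.96-fold higher. Its dimmer probe sets were 1.27-fold higher (538, 683 and 570) and at least 1.27-fold higher (116, 160 and 218). The casein kinase genes Csnk1d and Csnk1e, whose products mark the PER proteins, had probe sets in both directions. The brightest ones were 1.05-fold and 1.38-fold lower, and 3 other Csnk1d probe sets were 1.63-fold, 1.74-fold and at least 1.87-fold higher. Both other Csnk1e probe sets, with signals of 176, 199 and 270 and of 252, 376 and 293, were higher with FSK/PMA.

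Among 11 measured cofactors, Nampt, the rate-limiting enzyme of NAD salvage and a clock output, had signals of 648, 4306 and 2767 and was 6.65-fold higher with FSK/PMA. A dimmer Nampt probe set (87.5, 631 and 459) was also higher. The others were within 2-fold, Sfpq and Kdm5a being 1.65-fold and 1.68-fold higher. With Ad-NFIL3, Nampt was 1.56-fold lower and Hdac3, the deacetylase that REV-ERBs recruit, was 1.54-fold higher.

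Of 7 measured output genes, Noct, a phosphatase with rhythmic expression, had signals of 96.2, 483 and 467 and was at least 3.84-fold higher. Cdkn1a, an inhibitor of the cell cycle, was 3.23-fold higher, with signals of 2564, 8273 and 7590. Wee1, a cell cycle kinase driven by E-boxes, was 1.47-fold higher. Of 8 genes of the cAMP arm, which acts on Period promoters, Crem was 8.50-fold, Sik1 3.69-fold and Atf4 2.40-fold higher. Among all measured genes, 7.43% passed 2-fold upward. By the brightest probe sets the rest of the arm did not move together. Crtc1 was at least 1.75-fold lower, a bound, and Creb1 was 1.17-fold lower. Crtc2 and Id2 were 1.03-fold and 1.04-fold higher, and Crtc3 just passed 1.5-fold upward. A dimmer probe set was higher for Creb1 (115, 264 and 140) and lower for Id2 (5107, 2558 and 4459). Crem, which encodes a factor at cAMP elements, had signals of 496, 4221 and 2619, and Sik1, a kinase that dampens CREB coactivators, 354, 1306 and 856. Like Per1, Crem and Sik1, by their brightest probe sets, were highest on the FSK/PMA array and between it and the control on the Ad-NFIL3 array.

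Genes with the pattern nearest to a clock gene were found by the distance between their log2 differences in the FSK/PMA and Ad-NFIL3 comparisons, over 3 arrays and 8108 genes above the floor on all of them. Nearest to Per1 were Scarb1 (distance 0.10), Gfra1 and Homer1. Nearest to Bmal1 were Slc16a6 (0.018), Tmem123 and the heat shock gene Hsph1. Nearest to Cry2 were C3h11orf96 (0.028), Tmcc1 and Atf4, and nearest to Nr1d2 were Fam234a (0.025), Mccc1 and Mccc2, which encode both subunits of an enzyme of leucine breakdown. Nearest to Bhlhe40 were Rbm47 (0.019), Prcp and Smim14. The distance rests on 2 differences that share an array and says nothing on shared control.

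**Figure D5:**
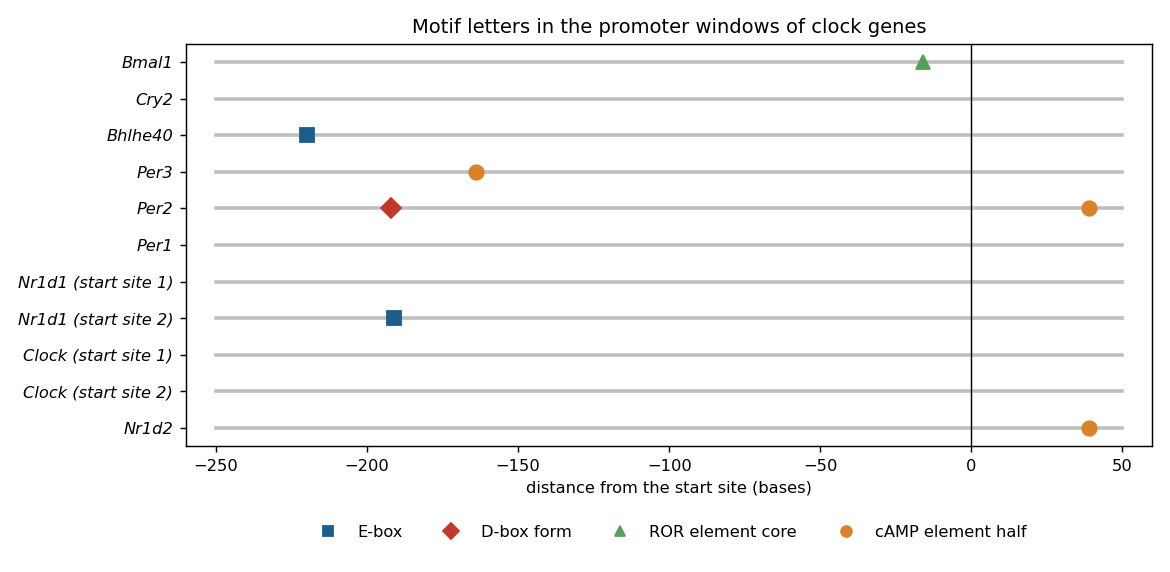
Position of the searched motifs in the promoter windows of 9 clock genes, from 250 bases before to 50 bases after each start site (grey lines; 11 windows, since Nr1d1 and Clock have 2 each). Symbols mark an E-box, a D-box form, a ROR element core and the cAMP element's core letters; Per1, Cry2 and Clock show none in these windows.

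Promoter windows were in RefSeq's table for 9 of the 10 genes, and not for Cry1. They were searched on both strands for the E-box CACGTG, the D-box forms named above, the ROR element core TAGGTCA, the cAMP element TGACGTCA with its core letters TGACG, and the AP-1 element TGAGTCA. The core letters TGACG, which lie within TGACGTCA, were in 3 of the 11 clock gene windows (Per2, Per3 and Nr1d2) and in 21.2% of all windows. In Per2 and Nr1d2 they began at base 39 counted from the start site into the gene. A link between these letters and the differences was not tested. The full cAMP element TGACGTCA and the AP-1 element TGAGTCA were in no clock gene window, against 1.83% and 4.63% of all. The Per1 window lay 5374 bases inside the outermost annotated start of that gene, so other Per1 promoter sequence was not searched. No letters found says only that they are not in this window.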

How the data were processed

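The table analysed here holds, per the labels, MAS5 signals of 3 Affymetrix rat arrays, 1 per group, deposited by the authors as a linear intensity per probe set, with no MAS5 version stated in what was used here. Per the series' design text, RNA of 3 experiments was pooled and 5 ug were used. The 2% trimmed mean of each column was 500.2, so the authors had scaled the arrays alike. Neither detection calls nor scanner files were analysed here.

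Arrays were brought to a common 2% trimmed mean, floored at 126 and put on the log2 scale. The platform annotation gave 1 symbol for 20832 probe sets, several for 436 and none for 9831. RefSeq's GRCr8 gene table, matched by Entrez ID for 20764 of them, supplied current symbols. The probe set brightest on average stood for its gene. Differences of at least 2-fold were counted; with 1 array a group there was no test, and precision is limited by the number of arrays. The clock genes, the network, marker and motif lists and the naming rule were chosen with earlier results of these data known. The text names all 10 clock genes, Nfil3 and network genes past 2-fold (otherwise up to 4 with the largest difference in their group). It also names further network genes chosen after their values were seen (Prkaa1, Btrc, Csnk1d, Csnk1e, Wee1, Pparg, Cirbp, Ppargc1a, Rbm3, Creb1, Crtc1, Crtc2, Crtc3, Id2, Rora, Bhlhe41, Sfpq, Kdm5a). The 3 genes nearest in pattern to each clock gene past 2-fold and above the floor on all arrays are named too. Alternatives were other floors, scalings (median, quantile, cyclic loess with limma 3.58.1 in R 4.3.3), probe set rules and a 1.5-fold limit. Other steps used Python 3.11.15 with pandas 2.3.3. The scripts were tested on simulated data, in which they recovered the folds put in. Those folds were all past the 2-fold limit and only in genes far above the floor. Dim genes and smaller differences, as for most clock genes, were thus not covered.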

Additional observations from a re-analysis of the deposited data

How the results depend on the processing

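The clock gene differences were recomputed under 7 alternatives, which gave 186 values over the 3 comparisons. None of the differences past 2-fold changed sign; 16 values moved by more than the spread between probe sets, and the other 170 did not. The medians moved less than that spread, from 0.44 to 0.70 with FSK/PMA and from -0.51 to -0.15 with Ad-NFIL3. With the floor at 547, where 7 clock genes were measured, 1 clock gene was at least 2-fold higher with FSK/PMA (Cry2) and 1 lower (Nr1d2), against 4 and 2, and 1 network gene was lower, against 3; a higher floor holds dim signals level by construction. With the mean of probe sets 1 clock gene was lower (Nr1d1). With the floor at 62.9, 3 network genes were higher and 1 lower with Ad-NFIL3, against 1 and 0. With median scaling 1 clock gene (Cry2) and 1 network gene were lower with Ad-NFIL3, against 0 and 0. At 1.5-fold, 16 network genes were higher and 6 lower with FSK/PMA, against 8 and 3 (all genes at 1.5-fold, 14.9% and 24%). With Ad-NFIL3 the counts at 1.5-fold were 5 and 4 for network genes and 1 and 1 for clock genes (all genes, 6.81% and 4.25%). Where no construction is named, the cause was not tested. Without the probe sets ending in _x_at, _s_at or _a_at, Bmal1 had no value. No paired analysis was possible because each group had 1 array, and no replicate could be left out. Signals near the floor limit Per3, Nr1d1 and the dimmer probe sets to bounds.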
